A study of Rattus norvegicus with 36 samples.

Results

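The 26S proteasome and the enzymes that attach and remove ubiquitin were followed in rat kidneys with acute renal failure of ischemic or toxic origin. The genes were chosen by name: all whose annotated symbol starts with Psma, Psmb, Psmc, Psmd, Psme or Ube2, or with Usp and a digit. This gave 69 genes, covered by 76 probes, of the 6394 genes that the annotation of the array names singly. They comprise 6 alpha and 5 constitutive beta subunits of the 20S core, 2 inducible beta subunits, 5 ATPase and 9 non-ATPase genes of the 19S cap, 5 genes named for proteasome activators, 16 ubiquitin conjugating enzymes and 21 genes named Usp. The choice by name also takes in Psme3ip1, which encodes a partner of Psme3, and Usp6nl, whose product is not a protease, and it counts the assembly chaperones Psmd5, Psmd9 and Psmd10 with the cap.

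The proteasome degrades proteins marked with chains of ubiquitin. Its 20S core is a barrel of stacked rings, in which the inner beta rings hold the protease sites, and the 19S cap recognises the ubiquitin chain, unfolds the protein with its ring of ATPases and feeds it into the core. Ubiquitin conjugating enzymes (E2) receive activated ubiquitin and pass it on with a ligase (E3), ubiquitin specific proteases (USP) take it off again, and immune signals can replace core beta subunits with inducible forms, giving the immunoproteasome. In kidney tubule cells this system clears damaged and misfolded proteins.

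All animals were male rats aged 6 to 8 weeks, and RNA came from kidney tissue, a portion of each kidney with no separation of cell types. In the ischemia groups both kidneys had 40 min without blood flow, followed by reperfusion for 2 h (4 rats) or 8 h (3 rats), and 3 others were given alphaMSH (alpha melanocyte stimulating hormone) at 50 µg intravenously after the same ischemia, with harvest at 2 h of reperfusion. Mercuric chloride (HgCl2) was injected under the skin at 4 mg/kg, with harvest at 2 h or 8 h (3 rats each), and cisplatin into the abdomen at 20 mg/kg, with harvest at 2 h (3 rats). The control groups were sham surgery with harvest at 8 h (3 rats), volume depletion by furosemide at 20 mg/kg, given at the start and again at 8 h, with a sodium-deficient diet and harvest at 24 h (4 rats), and untreated normal rats (5 rats). Of these, 5 rats had a second array from another aliquot of the same RNA, which makes 36 CodeLink arrays for 31 rats.

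Each value below is a probe's intensity as a multiple of its array's median, and the brightest probe stands for a gene. Arrays came from 2 production lots, of 24 and 12 arrays. Sham, cisplatin and HgCl2 8 h rats, with normal rats 11 and 12, belonged to lot 2, and all others, with normal rats 1 to 3, to lot 1. Each group was set against the normal rats of its own lot in a fit across all probes with limma, in which a gene was called at a Benjamini-Hochberg adjusted p under 0.05. A missing value was found for 70 to 172 of the 9911 probes per array. Ube2d2b and Ube2ql1, 2 conjugating enzyme genes, sat at the floor of 0.1 in 29 of 31 rats and were not tested, which leaves 67 members. Psmd3, a cap subunit, lacked a value in normal rat 12 and was not tested against the lot 2 normal rats, leaving 66 there. Between the normal rats of lot 2 and lot 1 the members differed by a median of -0.14 on the log2 scale, from -0.58 for Ube2z to 0.85 for Usp40, so levels are compared within a lot.

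The arrays of ischemia 8 h rat 3 and normal rat 1, with 1 of both arrays of volume depletion rat 1, stood apart from the others of their groups, and the members show it. Psmb4, a core beta subunit, read 5.19, 5.66 and 0.548 in ischemia 8 h rats 1 to 3, against 0.593, 3.94 and 4.46 in normal rats 1 to 3. Psma3, a core alpha subunit, read 2.07, 2.67 and 0.56 in the same ischemia rats, against 0.351, 1.39 and 1.76 in the normal rats. Psmb7, another core beta subunit, ran the other way, at 15.2, 17.9 and 34.7 in ischemia 8 h rats and 16.2, 12.3 and 12.8 in normal rats. Without these arrays 8 members in place of 7 were called at 2 h of ischemia, 7 in place of 5 with alphaMSH, 37 in place of 38 between 8 h and 2 h of ischemia, and 10 in place of 6 between ischemia and HgCl2 at 8 h. The other comparisons that called any member are given both ways below. The values deposited for sham rat 3 sat 2 lines away from their probes and were moved back before any use.

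Against normal kidneys the members rose broadly at 8 h of reperfusion and, in fewer genes, 8 h after HgCl2. Few were called in any other group. Against sham rats 11 of 67 members were higher at 8 h of ischemia, as given below. At 8 h of ischemia 34 of 67 members (50.7%) were higher and 3 (4.48%) lower than in normal kidneys, where 20.8% of all 9466 probes tested were higher and 21% lower. The median member differed by 0.37 on the log2 scale, against 0.01 for all probes. At 8 h after HgCl2, 11 of 66 members (16.7%) were higher and 0 lower, where 5.42% of all probes were higher and 5.88% lower, with a median of 0.23 for members and -0.03 for all probes. Over the comparisons with normal, 34 members were called higher at least once and never lower, 5 lower and never higher, 3 both ways, and 25 in none. The same tally was not made over all probes, so it does not set the members apart from them.

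**Figure D1:**
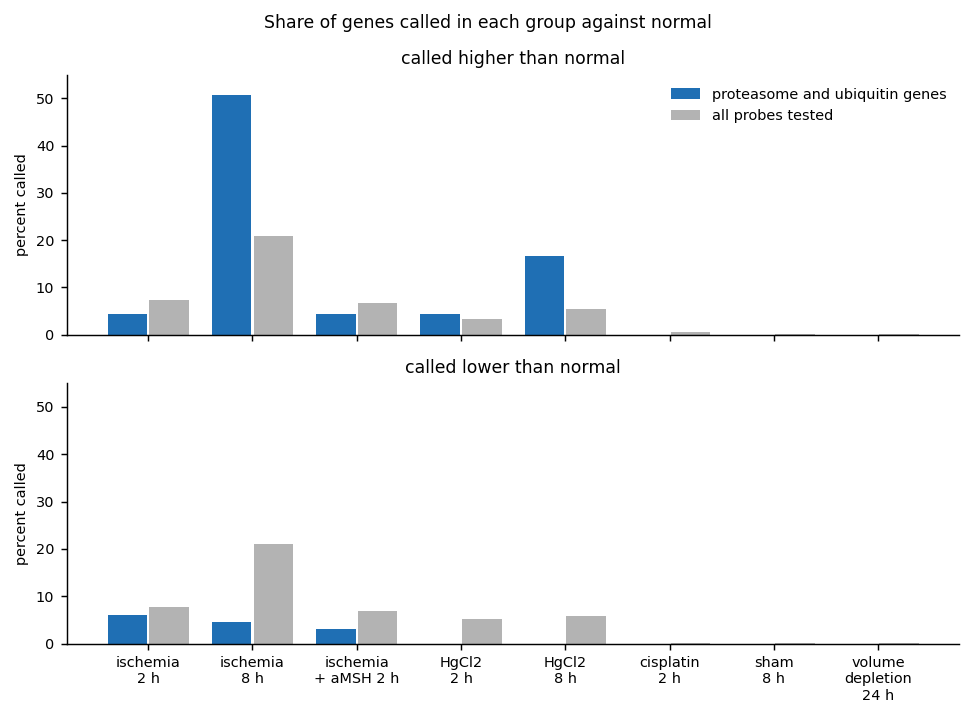
Percent of proteasome and ubiquitin genes (blue, 66 or 67 tested) and of all probes tested (grey) called higher (top) or lower (bottom) than normal in each treated group, at an adjusted p under 0.05. At 8 h of ischemia 50.7% of the genes were called higher, against 20.8% of all probes. At 8 h after HgCl2 the shares were 16.7% and 5.42%.

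Proteasome subunits made up most of the rise at 8 h of ischemia. Of 27 subunit genes of the core and cap, 21 rose and 0 fell, and the median difference of 0.47 on the log2 scale is a 1.38-fold level. In single rats, the median change of these subunits from the lot 1 normal mean was 0.21, 0.37 and 0.93 in ischemia 8 h rats 1 to 3, against 0.22, -0.08 and -0.09 in normal rats 1 to 3. Ischemia rat 3 was the highest and normal rat 1 reached the lowest ischemia rat. With both of these rats and the volume depletion array left out, 36 members were higher and 3 lower, and 21 of 27 subunits were called, with a median of 0.37. Leaving out ischemia 8 h rat 3 alone gave 11 of 27 with a median of 0.27, and leaving out normal rat 3 gave 12 of 27, with 23 members in all, 21 higher and 2 lower. The calls also drew on the spread of all 9 groups: with only the ischemia 8 h and normal rats in the fit, 10 members were called, 8 higher and 2 lower, of which 2 were subunits. In that fit 12.3% of all probes were higher and 11.4% lower. The 8 of 67 members called higher were near that share, and the 2 of 27 subunits were not above it. Volume depletion rats, also of lot 1, had subunit medians of 0.12, 0.00, 0.05 and 0.05.

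**Figure D2:**
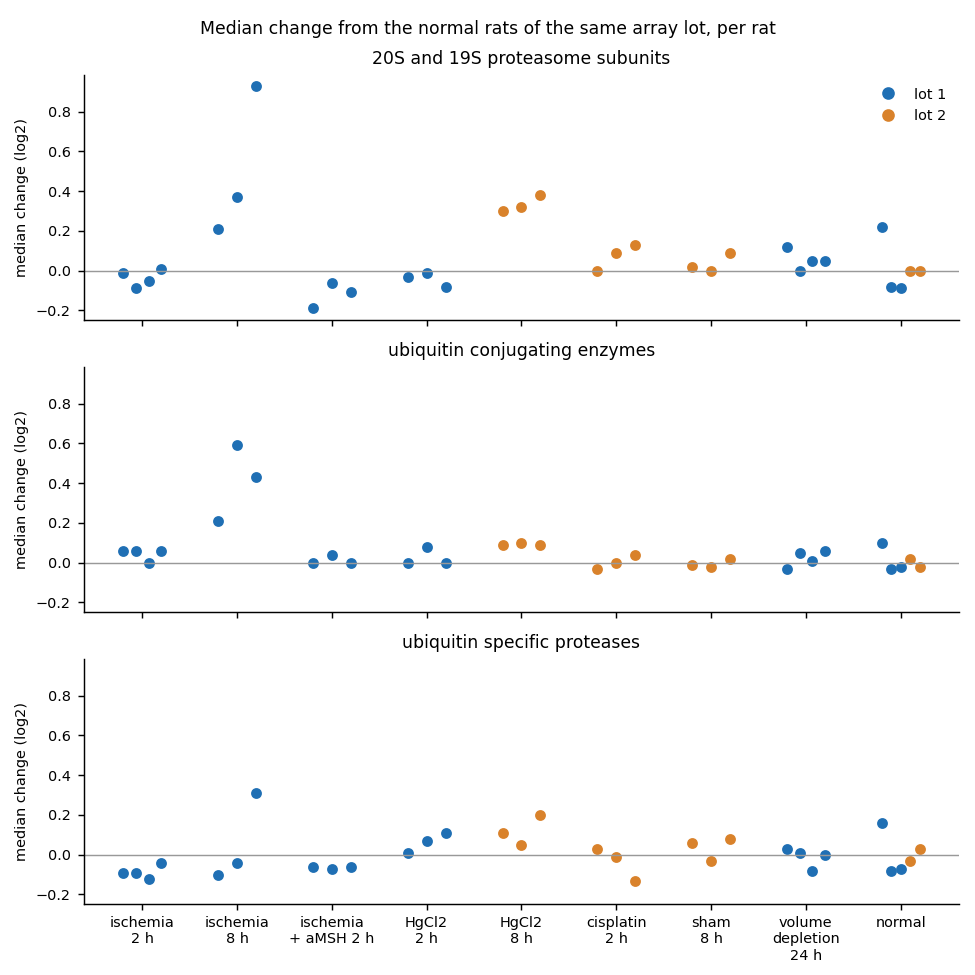
Median log2 change of 27 proteasome subunits, 16 ubiquitin conjugating enzymes and 21 ubiquitin specific proteases in each rat (points) from the mean of the normal rats of its array lot (blue lot 1, orange lot 2). The 16 include Ube2d2b and Ube2ql1, which sat at the floor in 29 of 31 rats and were not tested. They enter these medians with no change in most rats. Subunit medians lie at 0.21 to 0.93 in ischemia 8 h rats and 0.30 to 0.38 in HgCl2 8 h rats, and normal rat 1 lies at 0.22.

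All 5 ATPase genes of the cap rose at 8 h of ischemia, by 0.45 to 0.57 on the log2 scale. Psmc4 read 10.6, 12.0 and 17.4 in ischemia 8 h rats, against 9.97, 8.55 and 8.03 in lot 1 normal rats. Every ischemia rat lay above every normal rat, and the difference was 0.57 ± 0.11 (SE; adjusted p = 0.000263, limma, n = 3 each). Psmc3 read 12.0, 12.4 and 16.9 in ischemia rats and 10.1, 9.58 and 9.22 in normal rats, again without overlap (0.50 ± 0.10; adjusted p = 0.00039). Psmc2 and Psmc5 did not overlap with normal either, while Psmc1 did, at 15.0, 14.8 and 27.0 in ischemia rats and 15.2, 11.7 and 12.4 in normal rats.

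Of the 9 non-ATPase genes of the cap, 8 rose, and Psmd6, a lid subunit, did not pass the test (0.37 ± 0.17; adjusted p = 0.0917). Psmd5, an assembly chaperone that helps build the base of the cap and leaves it afterwards, had the largest difference of any member. Its intensity was 6.96, 7.86 and 12.7 in ischemia 8 h rats, against 4.16, 3.4 and 3.43 in normal rats, with no overlap. That is 1.28 ± 0.17 on the log2 scale, or 2.43-fold (adjusted p = 2.2e-06), and it was past the threshold in the fit of these groups alone (adjusted p = 0.0109). The other base chaperones on the array, Psmd9 and Psmd10, rose by 0.53 ± 0.19 (adjusted p = 0.025) and 0.44 ± 0.13 (adjusted p = 0.00742). Psmd9 read 2.36, 2.47 and 5 in ischemia rats and 2.5, 2.1 and 1.82 in normal rats, with overlap and with rat 3 far above the rest. Psmd10 had no overlap. Psmd1, the large scaffold of the base, read 1.07, 1.13 and 2.25 in ischemia rats and 0.945, 0.764 and 0.825 in normal rats, without overlap and with rat 3 far above the rest (0.73 ± 0.18; adjusted p = 0.00169). Psmd12, a lid subunit, rose by 0.62 ± 0.13 (adjusted p = 0.000314), at 6.4, 7.16 and 10.4 in ischemia rats and 5.52, 4.72 and 5.06 in normal rats. Psmd4, a ubiquitin receptor of the cap, rose by 0.41 ± 0.13 (adjusted p = 0.0111) with overlapping groups.

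In the 20S core, 3 of 6 alpha and 4 of 5 constitutive beta genes rose. Psma4, Psma5 and Psma6 rose by 0.39, 0.43 and 0.55 on the log2 scale, and of these only Psma5 had no overlap, at 14.3, 15.6 and 12.9 in ischemia 8 h rats and 11.8, 10.8 and 9.33 in normal rats. Psmb2 read 8.64, 10.2 and 16.5 in ischemia rats and 9.07, 6.27 and 6.81 in normal rats (0.64 ± 0.16; adjusted p = 0.0025), so the lowest ischemia rat lay below the highest normal one. Psmb1, Psmb3 and Psmb7 rose by 0.38, 0.46 and 0.63, each with overlap. Psma1 did not pass (0.32 ± 0.16; adjusted p = 0.12). Psma2, Psma3 and Psmb4, which read low in ischemia rat 3 and normal rat 1, did not pass either, with standard errors of 0.28, 0.47 and 0.70.

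The inducible beta subunits behaved differently from each other. Psmb10, the inducible counterpart of Psmb7, read 5.24, 5.21 and 6.66 in ischemia 8 h rats, against 3.15, 2.35 and 2.33 in normal rats. All ischemia rats were higher, by 1.13 ± 0.17 or 2.2-fold (adjusted p = 1.24e-05; 0.00471 in the fit of these groups alone). Psmb9, the counterpart of another catalytic subunit, read 2.2, 1.85 and 1.63 in ischemia rats and 1.82, 1.77 and 1.76 in normal rats, a difference of 0.08 with a 95% interval of -0.28 to 0.43. Among the genes named for activators, Psme2, a subunit of the PA28 ring induced by interferon, rose by 0.33 ± 0.09 (adjusted p = 0.004), at 16.5, 15.7 and 13.6 in ischemia rats and 12.7, 12.0 and 11.7 in normal rats. Psme3, which forms the nuclear ring, rose by 0.35 ± 0.13 (adjusted p = 0.0311) with overlap. Both missed the threshold in the fit of these groups alone, with adjusted p of 0.0648 and 0.224. Psme1, the partner of Psme2, and Psme4, a large single-chain activator, differed by 0.12 ± 0.17 and 0.09 ± 0.17 and did not pass. Psme3ip1 differed by -0.29 ± 0.17 and did not pass, but without ischemia 8 h rat 3 it was lower by -0.58 (adjusted p = 0.000787).

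**Figure D3:**
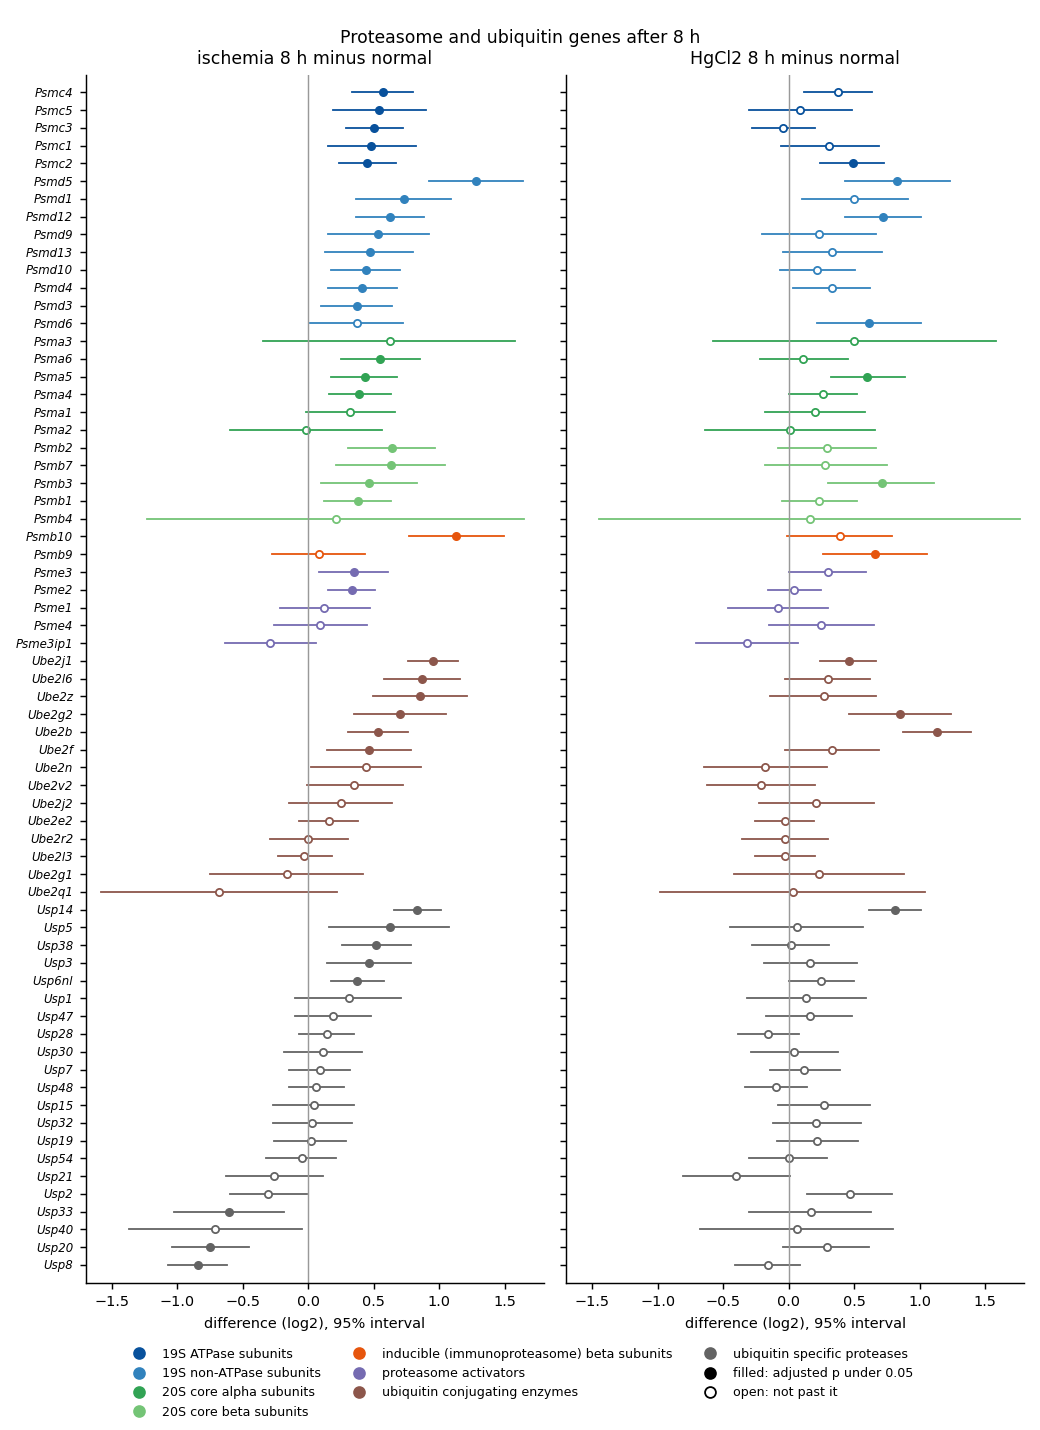
Log2 difference from normal with its 95% interval for the 67 members tested, at 8 h of ischemia (left) and 8 h after HgCl2 (right, 66 tested), coloured by role. Filled points passed an adjusted p of 0.05. At 8 h of ischemia the filled points run from Psmd5 at 1.28 to Usp8 at -0.84, and at 8 h after HgCl2 all lie right of zero, up to Ube2b at 1.13.

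Of 14 conjugating enzymes tested at 8 h of ischemia, 6 rose and 0 fell, where 20.8% of all probes were higher and 21% lower. Ube2j1, which sits in the membrane of the endoplasmic reticulum and serves the removal of misfolded proteins there, read 2.03, 2.25 and 2.13 in ischemia 8 h rats and 1.22, 1.07 and 1.04 in normal rats. The groups were well apart (0.95 ± 0.09; adjusted p = 1.69e-08). Ube2g2, an enzyme of the same pathway, rose by 0.70 ± 0.17 (adjusted p = 0.00165). Ube2l6, known in human cells as the main conjugating enzyme for the ubiquitin-like protein ISG15, read 2.18, 1.6 and 2.1 in ischemia rats and 1.16, 0.985 and 1.05 in normal rats, also without overlap (0.87 ± 0.14; adjusted p = 2.35e-05). Ube2z, which works with the activating enzyme Uba6, read 7.45, 8.59 and 13.8 in ischemia rats and 6.95, 5.02 and 4.32 in normal rats (0.85 ± 0.17; adjusted p = 0.000357). Here rat 3 was far above the others, and in the fit of these groups alone adjusted p was 0.0705. Ube2b, a RAD6 enzyme that acts on histone H2B and in tolerance of DNA damage, rose by 0.53 ± 0.11 (adjusted p = 0.000488), and Ube2f, an enzyme for the ubiquitin-like protein NEDD8, by 0.46 ± 0.16 (adjusted p = 0.0208). Ube2f read 6.91, 10.2 and 14.5 in ischemia rats and 7.67, 7.2 and 7.19 in normal rats, so ischemia rat 1 lay below every normal rat.

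Of 21 Usp genes, 5 rose and 3 fell at 8 h of ischemia, with a median of 0.06, where 20.8% of all probes were higher and 21% lower. Usp14, a protease that docks on the cap and trims ubiquitin chains there, read 13.2, 15.1 and 14.0 in ischemia 8 h rats and 8.08, 7.85 and 7.81 in normal rats. It rose by 0.83 ± 0.09 (adjusted p = 5.12e-08), with little spread within either group. The other risers were Usp5, which disassembles free ubiquitin chains, with Usp3, Usp38 and Usp6nl, at 0.37 to 0.62. Usp5 read 3.55, 3.74 and 9.02 in ischemia rats and 3.87, 2.81 and 3.06 in normal rats, with overlap and with rat 3 far above the rest. Usp3 overlapped with normal as well, while Usp38 and Usp6nl did not. Usp8, an endosomal protease that acts on receptors before their sorting to the lysosome, read 2.49, 2.73 and 3.33 in ischemia rats and 5.59, 4.94 and 4.74 in normal rats. All ischemia rats were lower, and it fell by 0.84 on the log2 scale with an SE of 0.11 (adjusted p = 1.09e-06). Usp20, a close relative of Usp33, read 0.94, 1.18 and 1.29 in ischemia rats and 1.77, 1.79 and 2.12 in normal rats, and fell by 0.75 with an SE of 0.14 (adjusted p = 0.000164). Usp33 read 5.42, 6.97 and 2.56 in ischemia rats and 6.6, 7.1 and 7.33 in normal rats. Its fall rested on rat 3: without that rat the difference was -0.19 (adjusted p = 0.166).

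Against the earlier time point, 35 of 67 members were higher at 8 h than at 2 h of ischemia and 3 lower, where 20.7% of all probes were higher and 17.4% lower. With only the ischemia and normal rats in the fit, 23 members were called, 20 higher and 3 lower. Psmb10 read 5.24, 5.21 and 6.66 at 8 h, against 1.94, 1.76, 2.21 and 2.49 at 2 h, and had the largest difference, 1.44 ± 0.16 (adjusted p = 2.79e-07). Psmd5 and Ube2l6 were both higher at 8 h by 1.10, and Psmd1 by 0.94. Psmb9, unlike in the comparison with normal, was called, with 2.2, 1.85 and 1.63 at 8 h and 1.13, 1.08, 1.36 and 1.27 at 2 h (0.64 ± 0.16; adjusted p = 0.0029). Usp20, Usp8 and Usp2, a protease under circadian control in mice, were lower at 8 h by 0.64, 0.57 and 0.49 on the log2 scale.

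At 8 h after HgCl2, 7 of 26 subunits tested, 3 of 14 conjugating enzymes and 1 of 21 Usp genes rose, and 0 members fell. Of all probes 5.42% were higher and 5.88% lower, and the Usp genes were near that share. In the rats, the subunit medians were 0.30, 0.32 and 0.38, against 0.00 and -0.00 in the normal rats 11 and 12 of the same lot, whose own mean is the base. The 3 HgCl2 rats lay close together. Only 2 normal rats stand behind these calls. With either left out, 1 normal rat of the lot remained, and fewer members and a smaller share of all probes were called. The member median was then 0.23 without normal rat 11 and 0.22 without normal rat 12. Without the arrays of lot 1 that stood apart 19 members were called, all higher, where 9.34% of all probes were higher and 12.7% lower.

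Ube2b had the largest rise, at 32.0, 30.3 and 22.8 in HgCl2 8 h rats, against 13.5 and 12.2 in normal rats 11 and 12. All 3 were higher, by 1.13 ± 0.13 or 2.19-fold (adjusted p = 1.27e-06). Usp14 read 15.3, 14.4 and 16.1 in HgCl2 rats and 8.07 and 9.41 in normal rats (0.81 ± 0.10; adjusted p = 4.49e-06), a difference close in size to that at 8 h of ischemia. Ube2g2 rose by 0.85 ± 0.19 (adjusted p = 0.00345), at 2.68, 3.15 and 2.25 in HgCl2 rats and 1.53 and 1.43 in normal rats. Psmd5 read 4.85, 4.45 and 6.36 in HgCl2 rats and 2.98 and 2.81 in normal rats (0.83 ± 0.19; adjusted p = 0.00497). Both lost the call without normal rat 12, with adjusted p of 0.057 and 0.0687. Without that rat 1 of 27 subunits was called, against 7 of 26 with it.

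Psmd12 read 10.4, 8.61 and 9.82 in HgCl2 8 h rats and 6.01 and 5.64 in normal rats, and rose by 0.72 ± 0.14 (adjusted p = 0.00109). Psmb3, a core beta subunit without protease activity, rose by 0.71 ± 0.20 (adjusted p = 0.0191), and Psmd6, Psma5, Psmc2 and Ube2j1 rose by 0.61, 0.60, 0.49 and 0.46. Psmb9 rose by 0.66 ± 0.19 (adjusted p = 0.0256), at 1.79, 2.34 and 2.05 in HgCl2 rats and 1.38 and 1.22 in normal rats. Normal rats of lot 1 read 1.82, 1.77 and 1.76 for the same probe, and without a lot term the difference was 0.38 (adjusted p = 0.107). Psmb10 read 2.69, 3.04 and 2.7 in HgCl2 rats and 2.08 and 2.21 in normal rats and did not pass (0.39 ± 0.19; adjusted p = 0.239). None of the activator genes passed, with differences of -0.32 to 0.30.

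Of the members, 9 were called higher at 8 h in both injuries, which is 26.5% of the 34 higher in ischemia and 81.8% of the 11 higher after HgCl2, each against the normal rats of its own lot. Over all probes the 383 called higher in both were 19.4% of the 1970 higher in ischemia and 75.1% of the 510 higher after HgCl2, so the members' overlap was near that of all probes. Psmb9 and Psmd6, called after HgCl2 alone, differed by 0.08 (adjusted p = 0.763) and 0.37 (adjusted p = 0.0917) in ischemia, and neither was called between the injuries. Set against each other with the lot term, 2 members were higher in ischemia and 4 lower, where 7.06% of all probes were higher and 5.25% lower. Psmc3 and Ube2j1 were higher in ischemia by 0.55 ± 0.16 (adjusted p = 0.0222) and 0.49 ± 0.14 (adjusted p = 0.02). Usp20 differed by -1.03 ± 0.21 (adjusted p = 0.00206), Usp2 by -0.77 ± 0.21 (adjusted p = 0.0166), Usp8 by -0.69 ± 0.16 (adjusted p = 0.00635) and Ube2b by -0.60 ± 0.17 (adjusted p = 0.0193). This comparison crosses the lots and leans on the normal rats of both: without the lot term 29 members were called, and with only these groups and the normal rats 2 were, both lower. Psmb10, at 1.13 in ischemia and 0.39 after HgCl2, was not among the members called.

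**Figure D4:**
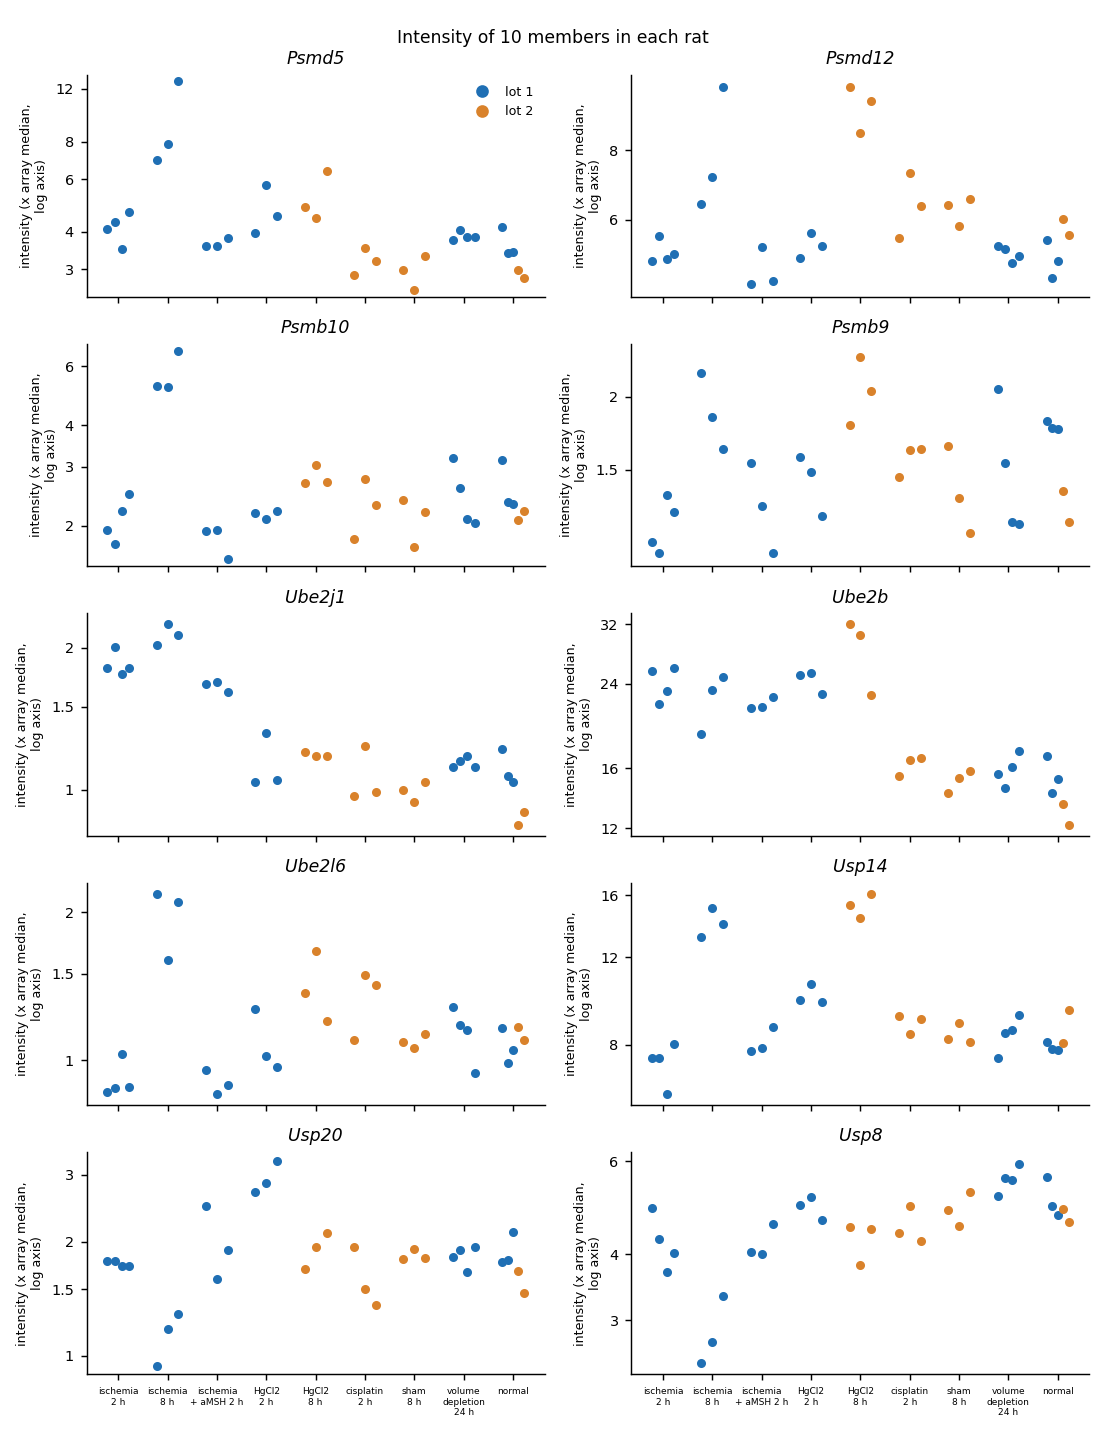
Intensity of 10 members in each rat (points; multiples of the array median, log axis) by group, with array lot 1 in blue and lot 2 in orange. Usp14 reads 13.2 to 15.1 in ischemia 8 h rats and 14.4 to 16.1 in HgCl2 8 h rats, against 7.81 to 9.41 in normal rats. Psmb10 reads 5.21 to 6.66 in ischemia 8 h rats, above every other rat, and Ube2j1 reads 1.61 to 2.25 in the rats with ischemia, above all others.

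The sham rats gave a control at the same hour. Against sham rats, 6 of 27 subunits were called higher and 0 lower at 8 h of ischemia, where 21 were called against normal kidneys. The subunit median was 0.45 on the log2 scale, against 0.47 there. Of the 6 alpha and 5 constitutive beta genes of the core, 0 were called. Over all members, 11 of 67 (16.4%) were higher than after sham surgery and 3 (4.48%) lower. Of all probes 12.2% were higher and 11.2% lower, again across lots. Psmd5 (1.25 ± 0.26; adjusted p = 0.000993), Psmb10 (1.17 ± 0.26; adjusted p = 0.00189), Ube2l6 (0.93 ± 0.21; adjusted p = 0.00218) and Usp14 (0.89 ± 0.13; adjusted p = 2.57e-05) were the 4 largest. Usp2 and Usp20 both differed by -0.98 ± 0.21 and Usp8 by -0.88 ± 0.16. Usp2 read 2.36, 2.43 and 1.96 in sham rats and 1.33 and 1.48 in normal rats of the same lot, and was the 1 member with an unadjusted p under 0.05 between sham and normal (0.67 ± 0.16; adjusted p = 0.0694). The count of 14 was 24 without ischemia 8 h rat 1 and 44 without the lot term. Within lot 2, 12 members were higher after HgCl2 than after sham surgery and 0 lower, where 6.14% of all probes were higher and 7.5% lower, and the count was 24 without the arrays of lot 1 that stood apart. Ube2b read 32.0, 30.3 and 22.8 in HgCl2 8 h rats and 14.2, 15.3 and 15.8 in sham rats (0.90 ± 0.11; adjusted p = 5.25e-06), and Usp14, Psmd5 and Psmb3 were higher by 0.86, 0.81 and 0.69.

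At 2 h of ischemia 0 of 27 subunits were called higher and 1, Psmb9, lower, and the median was -0.06, the same as that of all probes. Over all 67 members 3 (4.48%) were higher and 4 (5.97%) lower, where 7.46% of all probes were higher and 7.82% lower. With so few members called, these shares are near those of all probes. Ube2j1 read 1.81, 2.01, 1.76 and 1.81 in ischemia 2 h rats, against 1.22, 1.07 and 1.04 in normal rats, and rose by 0.74 ± 0.09 (adjusted p = 1.19e-06). Ube2b read 25.6, 21.8, 23.2 and 25.9 in ischemia rats and 17.0, 14.2 and 15.2 in normal rats (0.64 ± 0.10; adjusted p = 9.76e-05). Both were clear of normal in every rat. Usp38 rose by 0.48 ± 0.12 (adjusted p = 0.00584), a call lost without normal rat 3 (0.37; adjusted p = 0.057) and with only the groups compared in the fit (adjusted p = 0.0525). Psmb9 fell by 0.57 with an SE of 0.16 (adjusted p = 0.0175), and Usp21, a protease known to act on histone H2A, fell by 0.58 with an SE of 0.17 (adjusted p = 0.0169). Usp30, a protease of the mitochondrial outer membrane, and Usp54 fell by 0.42 and 0.37. All 4 falls lost their call without normal rat 1, which left 3 members called, and Usp30, at 0.158 to 0.181 in ischemia rats, lay close to the floor.

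In ischemia with alphaMSH at 2 h, set against the same normal rats as untreated ischemia, 3 members were higher and 2 lower, where 6.68% of all probes were higher and 6.96% lower. Ube2j1, Ube2b and Usp38 rose by 0.58, 0.50 and 0.46, and Usp30 and Psme2 fell by 0.47 and 0.31. The calls of Usp38, Usp30 and Psme2 were each lost in several other fits: Usp38 had an adjusted p of 0.106 with only the groups compared, Usp30 of 0.887 with a floor of 0.25, and Psme2 of 0.161 after quantile normalization. Without normal rat 2 the count was 2, and without normal rat 1 or alphaMSH rat 1 it was 3. Set directly against untreated ischemia, 0 of 67 members were called with limma, where 0% of all probes were, and 0 members had an unadjusted p under 0.05. The differences ran from -0.25 for Usp19, a protease with a form anchored in the endoplasmic reticulum (95% interval -0.51 to 0.02), to 0.28 for Usp40 (-0.34 to 0.90). A p that misses the threshold at 3 against 4 rats does not show that the groups were alike.

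At 2 h after HgCl2, 3 members rose and 0 fell, where 3.25% of all probes were higher and 5.16% lower. Ube2b read 25.0, 25.3 and 22.9 in HgCl2 2 h rats, against 17.0, 14.2 and 15.2 in normal rats (0.66 ± 0.11; adjusted p = 0.000489). Usp20, which fell at 8 h of ischemia, read 2.7, 2.86 and 3.27 in HgCl2 2 h rats and 1.77, 1.79 and 2.12 in normal rats, and rose by 0.64 ± 0.14 (adjusted p = 0.00602). Usp14 read 9.85, 10.6 and 9.75 in HgCl2 rats and 8.08, 7.85 and 7.81 in normal rats (0.35 ± 0.09; adjusted p = 0.0138). All 3 genes were above normal in every rat. Without the arrays that stood apart the count was 10, all higher. Between 8 h and 2 h after HgCl2, 0 of 67 members were called with limma, where 0.803% of all probes were, although 18 had an unadjusted p under 0.05 and the median was 0.23. The lowest adjusted p was 0.0818, the groups lay in different lots, and 16 members were called without the lot term, 2 without the arrays that stood apart and 1 without HgCl2 8 h rat 3.

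Ube2b was called higher in every ischemia and HgCl2 group, and Ube2j1 in all of them but HgCl2 at 2 h. Cisplatin at 2 h called 0 of 66 members with limma, where 0.564% of all probes were called, with 4 members at an unadjusted p under 0.05. Ube2b read 15.4, 16.7 and 16.8 in cisplatin rats and 13.5 and 12.2 in normal rats (0.35 ± 0.13; adjusted p = 0.417), and Ube2j1 differed by 0.29 ± 0.10 (adjusted p = 0.392). Sham surgery called 0 of 66, where 0.276% of all probes were called, and Usp2, given above, had the 1 unadjusted p under 0.05. Volume depletion called 0 of 67, where 0.18% of all probes were called, with 2 members under it, Usp2 at 0.36 ± 0.13 and Usp28, a nuclear protease, at -0.26 ± 0.10.

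Promoter sequences are shown for the members whose regulation is best known from other systems. In mammalian cells the factor Nfe2l1 is known to raise subunit genes together through antioxidant response elements when proteasome activity is low, and interferon raises the inducible subunits through elements of their own. Promoters of 64 members, mostly the bases just before the start of one annotated transcript, were found in RefSeq on GRCr8, among 33469 promoters of that length. In all, 4 motifs were searched on both strands, chosen with the results known. TGACNNNGC, the core of the antioxidant response element, occurred in 21.9% of member promoters, 20% of the 25 subunit promoters and 12.1% of all promoters. CCAAT, a general promoter box, occurred in 42.2% of member promoters, 64% of subunit promoters and 37.5% of all. GAAA, any 2 bases and GAAA again, the core of the interferon stimulated response element, occurred in 6.25% of member promoters, 12% of subunit promoters and 3.92% of all. GAANNTTC, the core of the heat shock element, occurred in 7.81% of member promoters, 12% of subunit promoters and 8.59% of all. A match is a run of letters and not a site shown to be used.

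Psmb2 and Psmd1 are shown as subunits that rose at 8 h of ischemia and hold TGACNNNGC. Psmb10 and Psme2 are shown as examples of members induced by interferon that rose at that hour. Their promoters lie at chr5:144254808-144255107 (plus strand), chr9:94157721-94158020 (plus strand), chr19:50743243-50743542 (minus strand) and chr15:33052702-33053001 (minus strand). The stretch of Psme2 belongs to one of its annotated starts and lies inside the gene as RefSeq spans it, which ends at 33053055. Each is written along its gene's own strand, and in the first 2 capitals mark TGACNNNGC or CCAAT on either strand, while in the last 2 they mark the interferon element core. In Psmb2 a CCAAT box runs into TGACNNNGC with a base in common.
Psmb2: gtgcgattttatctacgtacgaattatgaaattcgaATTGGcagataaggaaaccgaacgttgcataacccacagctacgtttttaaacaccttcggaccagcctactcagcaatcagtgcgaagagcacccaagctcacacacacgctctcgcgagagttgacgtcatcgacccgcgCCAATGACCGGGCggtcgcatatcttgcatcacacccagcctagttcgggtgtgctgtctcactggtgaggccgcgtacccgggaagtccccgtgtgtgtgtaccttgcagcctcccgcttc
Psmd1: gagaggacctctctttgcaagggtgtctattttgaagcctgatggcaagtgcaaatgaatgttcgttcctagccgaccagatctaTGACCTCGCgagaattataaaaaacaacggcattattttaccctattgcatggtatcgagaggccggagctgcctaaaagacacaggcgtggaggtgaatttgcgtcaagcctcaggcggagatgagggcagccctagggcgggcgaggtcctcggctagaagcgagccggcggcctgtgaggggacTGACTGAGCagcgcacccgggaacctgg
Psmb10: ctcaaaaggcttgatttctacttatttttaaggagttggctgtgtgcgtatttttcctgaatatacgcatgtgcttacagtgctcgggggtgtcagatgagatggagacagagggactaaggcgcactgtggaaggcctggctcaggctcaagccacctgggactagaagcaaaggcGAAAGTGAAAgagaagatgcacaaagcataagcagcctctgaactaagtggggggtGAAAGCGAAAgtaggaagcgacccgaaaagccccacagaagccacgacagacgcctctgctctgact
Psme2: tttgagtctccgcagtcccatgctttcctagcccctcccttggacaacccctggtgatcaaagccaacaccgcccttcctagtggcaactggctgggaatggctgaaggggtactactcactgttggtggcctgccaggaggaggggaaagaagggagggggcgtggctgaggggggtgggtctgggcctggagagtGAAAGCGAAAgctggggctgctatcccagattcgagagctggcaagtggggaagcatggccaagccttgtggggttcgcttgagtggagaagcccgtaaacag

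Other genes of the pathway were counted in the same way, against 20.8% of all probes higher and 21% lower at 8 h of ischemia, and 5.42% and 5.88% at 8 h after HgCl2. Of 29 ligases and ligase subunits tested, 10 rose and 4 fell in ischemia, led by Arih1 (1.41 ± 0.13; adjusted p = 9.84e-09), a ligase that pairs with cullin ligases, and Trim63 (-1.02 ± 0.19; adjusted p = 0.000157), a ligase best known in muscle. After HgCl2 at 8 h, 4 of 28 rose and 0 fell, Arih1 among them (0.84 ± 0.15; adjusted p = 0.000374). Of 15 assembly, shuttle and segregase genes, 6 rose at 8 h of ischemia and 5 at 8 h after HgCl2, with 0 lower in either. Nploc4, a cofactor of the segregase p97, rose by 0.95 ± 0.16 in ischemia (adjusted p = 3.53e-05) and 1.11 ± 0.18 after HgCl2 (adjusted p = 0.000133), and Adrm1, a ubiquitin receptor of the cap, by 0.80 ± 0.15 and 0.78 ± 0.16. Of 7 genes for ubiquitin, activating enzymes and ubiquitin-like proteins, 1 rose in ischemia, Sae1 for the SUMO activating enzyme, and 0 after HgCl2 at 8 h. Of 5 other deubiquitinating enzymes 1 rose in both, Uchl1, by 1.32 ± 0.26 in ischemia and 1.82 ± 0.29 after HgCl2.

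Markers of other responses and cells moved in the same kidneys, and their part in the members' rise was not tested. Of all probes, 20.8% were higher and 21% lower at 8 h of ischemia, and 5.42% and 5.88% at 8 h after HgCl2. The ranges of summed intensity in normal rats span the 5 rats of both lots, so these sums are not compared within a lot. Of 14 kidney tubule markers tested, 11 fell at 8 h of ischemia and 4 at 8 h after HgCl2, and the summed intensity of all 15 ranged over 177 to 208 in ischemia 8 h rats and 207 to 253 in HgCl2 8 h rats, against 322 to 451 in normal rats, where 14 of 15 read above the array median. In whole tissue, fewer cells of a type and less RNA per cell cannot be told apart, and each intensity is relative to its array's median. Of 18 leukocyte markers tested, 6 rose at 8 h of ischemia and 2 at 8 h after HgCl2, with 0 lower in either. The median marker differed by 0.02 on the log2 scale in ischemia, with 11 of 18 above zero, and by 0.36 after HgCl2, with 15 above zero. Against sham rats 3 of the 18 were higher at 8 h of ischemia and 0 at 8 h after HgCl2. The sum of all 20 was 81.3 to 104 in ischemia 8 h rats and 62 to 101 in HgCl2 8 h rats, against 56.1 to 86.7 in normal rats. None of the 20 had a group mean at the floor in any of these 3 groups, which does not exclude single rats at the floor. S100a9, a neutrophil marker, rose by 5.02 ± 0.47 in ischemia and 3.53 ± 0.52 after HgCl2 at 8 h, and by 2.47 ± 0.52 after sham surgery. Of 20 interferon and antigen presentation genes, 6 rose and 1 fell at 8 h of ischemia, and 1 rose and 0 fell at 8 h after HgCl2. Their summed intensity was 76.6 to 93.6 in ischemia 8 h rats and 71.8 to 99.6 in HgCl2 8 h rats, against 56.2 to 88.8 in normal rats. Cxcl10, a chemokine induced by interferon, rose by 1.98 ± 0.25 in ischemia and 1.05 ± 0.27 after HgCl2 at that hour. All 7 tubular injury markers rose at 8 h of ischemia and 4 of 7 at 8 h after HgCl2. A list of factors known to act on proteasome genes, with partner genes, had 9 genes tested. Of these, 5 rose and 2 fell in ischemia and 6 rose and 0 fell after HgCl2 at 8 h. The risers include the heat shock gene Hspa1a at 5.86 ± 0.35 and 6.15 ± 0.40. Of 4 genes for blood, adrenal and fat tested, 1 rose in both, Alas2 of red cells, and the sum of all 5 was 3.84 to 4.19 in ischemia 8 h rats and 3.25 to 4.02 in HgCl2 8 h rats, against 2.31 to 4.06 in normal rats.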

How the data were processed

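The 36 CodeLink arrays, with 9911 probes each, covered kidney RNA of 31 rats. The deposited values carry no stated unit, and no source used here gives the scanner settings or background correction. The log2 of all 333184 deposited values tested was a whole multiple of 0.0001 within a tolerance of 0.01 of that step, with array medians of 0.999 to 1 and a highest value of 323, so the log2 of a deposited value was read as a linear intensity relative to the array median. A deposited value of 0.5 (0.969% of all values) was taken as missing. Values of sham rat 3 correlated with the other arrays at r = 0.0652 as deposited and 0.984 after moving them by 2 lines (0.916 to 0.989 for the other arrays).

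Intensities were divided by the array median, floored at 0.1 and put on the log2 scale, arrays of a rat were averaged, and all groups were fitted with a lot term in limma 3.58.1 under R 4.3.3, with Benjamini-Hochberg adjustment and 11 to 21 residual degrees of freedom. The fit was also run on simulated data with independent noise and no arrays that stand apart, so that run does not cover such arrays. The labels do not tie an array to a lot: the lots came with the rule for choosing the genes, and the arrays of the lots separate in the values. The series text names 3 normal rats per lot, where the samples used here hold 3 and 2. Probes were tested when measured in most rats, in at least 2 of each group compared, and above the floor in at least 3. The form of this filter was settled after the data had been seen, with other forms tried. One symbol was annotated for 7178 probes, several for 21 and none for 2712, and a probe shared by Psma3 and Psma3l was left out.

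Members, gene lists, motifs and printed promoters were chosen with earlier results of these data known. Named members are up to 6 rising and 6 falling genes per comparison with normal, up to 4 each way between treated groups, and all inducible beta subunits and activators. Up to 3 genes each way were named from other lists, and further genes were chosen after their values were seen. The number of arrays limits the precision.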

Additional observations from a re-analysis of the deposited data

Results flagged for a closer look

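In groups of 4 rats, 4 of 52 sets of values for named members held a rat far from the others, where chance gives about 1 in 20. Psme2 read 9.34 in ischemia 2 h rat 4, against 10.6 to 10.9 in the other rats of the group. Psme4 read 6.94 in volume depletion rat 3, against 8.34 to 8.57. Ube2l6 read 1.03 in ischemia 2 h rat 3, against 0.861 to 0.881, and Usp54 read 1.23 in the same rat, against 1.46 to 1.51.

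The change from normal differed between 8 h and 2 h of ischemia, by the direct test in limma, for Psmb10 (1.44), Psmd5 (1.10), Ube2l6 (1.10), Psmd1 (0.94), Usp20 (-0.64), Usp8 (-0.57) and Usp2 (-0.49) on the log2 scale. It differed between ischemia and HgCl2 at 8 h for Psmc3 (0.55), Ube2j1 (0.49), Usp20 (-1.03), Usp2 (-0.77), Usp8 (-0.69) and Ube2b (-0.60), a comparison that crosses the array lots.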

How the results depend on the processing

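Of 247 alternatives run on the counts of members called, 205 stayed within 1.5 times. Of 1886 alternatives for named members 1763 kept direction and side of the threshold, 115 lost the call, 8 gained it and 0 turned direction. With only the groups compared and the normal rats in the fit, the counts were 10 in place of 37 (ischemia 8 h), 3 in place of 5 (alphaMSH), 23 in place of 38 (ischemia 8 h against 2 h), 8 in place of 14 (ischemia 8 h against sham) and 2 in place of 6 (ischemia 8 h against HgCl2 8 h). Quantile normalization gave 9 for alphaMSH, 5 for HgCl2 2 h, 20 for HgCl2 8 h, 1 for sham, 2 for HgCl2 8 h against 2 h, 27 for ischemia 8 h against sham and 19 for HgCl2 8 h against sham. Without the lot term the counts were 19 for HgCl2 8 h, 4 for cisplatin, 1 for sham, 16 for HgCl2 8 h against 2 h, 44 for ischemia 8 h against sham and 29 for ischemia 8 h against HgCl2 8 h. Without the arrays that stood apart they were 10 for HgCl2 2 h, 19 for HgCl2 8 h, 2 for HgCl2 8 h against 2 h, 22 for ischemia 8 h against sham, 24 for HgCl2 8 h against sham and 10 for ischemia 8 h against HgCl2 8 h. With sham rat 3 in the deposited order they were 0 for ischemia 2 h, alphaMSH, HgCl2 2 h, HgCl2 8 h and ischemia 8 h against HgCl2 8 h, 5 for ischemia 8 h, 8 for ischemia 8 h against 2 h and 6 for ischemia 8 h against sham. The causes were not tested.

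Leaving out 1 rat at a time gave 3 to 7 for ischemia 2 h, 2 to 5 for alphaMSH, 23 to 40 for ischemia 8 h, 2 to 4 for HgCl2 2 h, 4 to 10 for HgCl2 8 h, 32 to 43 for ischemia 8 h against 2 h, 0 to 1 for HgCl2 8 h against 2 h, 10 to 24 for ischemia 8 h against sham, 9 to 10 for HgCl2 8 h against sham and 4 to 9 for ischemia 8 h against HgCl2 8 h. Replicate numbers did not pair the rats: deviations of 40 pairs with the same number had a median r of -0.0142 (-0.547 to 0.389), against -0.00389 for 102 other pairs. The replicate block, possible within a lot, gave 4 for ischemia 2 h, 28 for ischemia 8 h, 31 for ischemia 8 h against 2 h and 14 for HgCl2 8 h against sham. A filter chosen after seeing the data, 3 rats of the groups compared above the floor, gave 12 for HgCl2 8 h.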
